A study of Mus musculus with 8 samples.

Results

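Isl1 and its LIM-domain partner factors were followed in the pharyngeal mesoderm and heart of single mouse embryos, in wild-type embryos and in embryos without Isl1. The group held 10 genes of the 20701 gene symbols measured: the LIM-homeodomain factors Isl1, Isl2 and Lhx1, the adaptors Ldb1 and Ldb2, the LIM-only proteins Lmo2 and Lmo4, and the adaptor-binding cofactors Ssbp2, Ssbp3 and Ssbp4. Members were chosen by symbol, without use of their values, and where a symbol had several transcript entries the entry with the highest summed count was used.

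Isl1 is a transcription factor of second heart field progenitors, the cells of the pharyngeal mesoderm that build the outflow tract, the right ventricle and much of the atria. Its LIM domains bind the adaptors LDB1 or LDB2, which dimerise and so join several DNA-bound factors into a complex. SSBP proteins bind the adaptors and protect them from degradation. LIM-only proteins such as LMO2 and LMO4 lack a homeodomain and occupy the same adaptor surface, so the relative amounts of these proteins can decide which complexes form.

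RNA was sequenced from dissected tissue of 4 embryos of genotype Isl1-/- and 4 embryos labelled wild-type, each library from 1 embryo. All embryos were of strain C57BL/6 at stage E8.75, with 6 somites. The structure of the knockout allele was not given in the sources used here, so it could not be checked which of the counted Isl1 exons it leaves in place. According to the molecule label, 7 libraries were made from polyA RNA, while the library of knockout embryo 2 carried the label total RNA.

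The total count over 1 entry per symbol ranged from 23480470 to 26153039 in wild-type libraries and from 18916452 to 25047013 in knockout libraries. Levels are given as RPKM, a read count scaled by transcript length and by library size, which allows genes of different length to be compared. Library size in the RPKM is the count summed over all 31507 transcript entries, which is larger than the totals above. Fold changes, with a standard error (SE) and a 95% interval, come from edgeR's quasi-likelihood test on the counts of 14075 genes, with the false discovery rate (FDR) adjusted by Benjamini-Hochberg over all of them. Their scale is log2 of knockout over wild-type after TMM scaling, whose factors ran from 0.961 to 1.03, so that small differences in mean RPKM and in the fold change need not match. All 10 members passed the filter on low counts.

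The tissue was checked against lists of cell type markers, each summed in RPKM per embryo, and every listed gene had a count in at least 1 embryo. The cardiomyocyte list (8 genes, led by Myl4, Tnnt2 and Tnni1) summed to 416 to 553 in wild-type and to 234 to 344 in knockout embryos, and 7 of its 8 genes were lower at an FDR of 0.05. The second heart field list (7 genes, among them Tbx1 and Eya1) summed to 20.3 to 44.4 and to 23.3 to 46.8, with 0 of 7 genes past the FDR by edgeR. Sums for the endothelial list (6 genes, led by Cdh5, Kdr and Tek) were 49.3 to 57.6 against 38.8 to 53.6. The primitive erythroid list (6 genes, led by Hbb-bh1, Hba-x and Alas2) ranged widely in both genotypes, from 323 to 1847 and from 1054 to 2576. Foregut endoderm genes (6, led by Cldn6, Epcam and Foxa2) summed to 64.8 to 89.1 against 66.3 to 98.0. Neural tube genes (6, led by Sox2, Pax6 and Sox1) summed to 42.9 to 52.5 against 46.5 to 65.0, postmitotic neuron genes (6, led by Tubb3, Pou4f1 and Elavl3) to 9.83 to 13.5 against 10.8 to 15.2, and intermediate mesoderm genes (4, led by Pax8, Pax2 and Osr1) to 8.0 to 9.79 against 8.25 to 11.5. Marker RNA of foregut endoderm, neural tube and blood was therefore present in every embryo. In bulk tissue, fewer cells of a type and less RNA per cell cannot be told apart.

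Isl1 and Isl2 are close copies, and the treatment of reads that fit both was not stated, so their coding sequences were compared in the mm9 transcripts of GENCODE vM1. Positions here and in what follows are on mm9. Isl1 lies at chr13:117088478-117099896 on the minus strand and Isl2 at chr9:55386479-55393987 on the plus strand. The stretches below are the best ungapped match of 60 coding bases within 1 exon of each gene, exon 4 in both, and are shown because they are where the counts of the pair could be hardest to separate. Capitals mark the 5 bases that differ. The Isl1 stretch is chr13:117093445-117093504 on the minus strand and the Isl2 stretch is chr9:55391916-55391975 on the plus strand, both coding bases written in the direction of the gene.
Isl1: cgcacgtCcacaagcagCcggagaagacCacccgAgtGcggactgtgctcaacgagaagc
Isl2: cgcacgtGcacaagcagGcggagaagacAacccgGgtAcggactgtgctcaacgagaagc
Of the 60 bases, 55 matched. The longest identical run in the whole coding sequence of the pair was 23 bases, and no pair among the 10 members shared a longer one.

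The longest identical runs of the other copies are shown for the same reason, in lower case throughout since every base is shared. Ldb1 and Ldb2 shared 23 bases, Ssbp2 and Ssbp3 shared 20, Ssbp2 and Ssbp4 shared 20, and Ssbp3 and Ssbp4 shared 18.
Ldb1 and Ldb2: caggtacctgatgtgatggtggt
Ssbp2 and Ssbp3: gatgggaaaaaaacatcaca
Ssbp2 and Ssbp4: gcatgaccatgagcgtgtga
Ssbp3 and Ssbp4: gccctcggacgggcaggc
Lmo2 and Lmo4 shared 9 bases, and members of different roles shared at most 13. Untranslated sequence was not compared. Counting used both strands, so reads of a gene antisense to a member could not be told apart from its own.

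Isl1, the targeted gene, separated the genotypes. Isl1 was at 2.22, 2.20, 6.24 and 5.51 RPKM in wild-type embryos 1 to 4. In knockout embryos 1 to 4 it was at 0.563, 0.509, 0.425 and 0.58 RPKM. Every wild-type embryo lay above every knockout embryo, and the lowest wild-type level was 3.80 times the highest knockout level. The mean was 4.04 ± 2.14 RPKM (SD, n = 4) against 0.519 ± 0.0699 RPKM (SD, n = 4), so that 12.8% of the mean wild-type level remained. The log2 fold change was -3.00 with an SE of 0.36, a 95% interval from -3.81 to -2.19 and an FDR of 0.0041 by edgeR. Without knockout embryo 2, the library labelled total RNA, it was -3.00 with an FDR of 0.0167.

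The remaining signal in the knockout embryos was above zero. The Isl1 counts behind it were 60, 52, 34 and 49 reads, and the exact Poisson interval of the lowest of them, 23.5 to 47.5 reads, lay above the 3 counts taken as the smallest detectable signal. These intervals cover counting error only, since reads carried no molecular identifiers. At that level Isl1 was no longer apart from Isl2: the knockout means were 0.519 and 0.565 RPKM, and Isl1 was the higher of the pair in 2 of 4 knockout embryos, whereas it was the higher in 4 of 4 wild-type embryos.

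**Figure D1:**
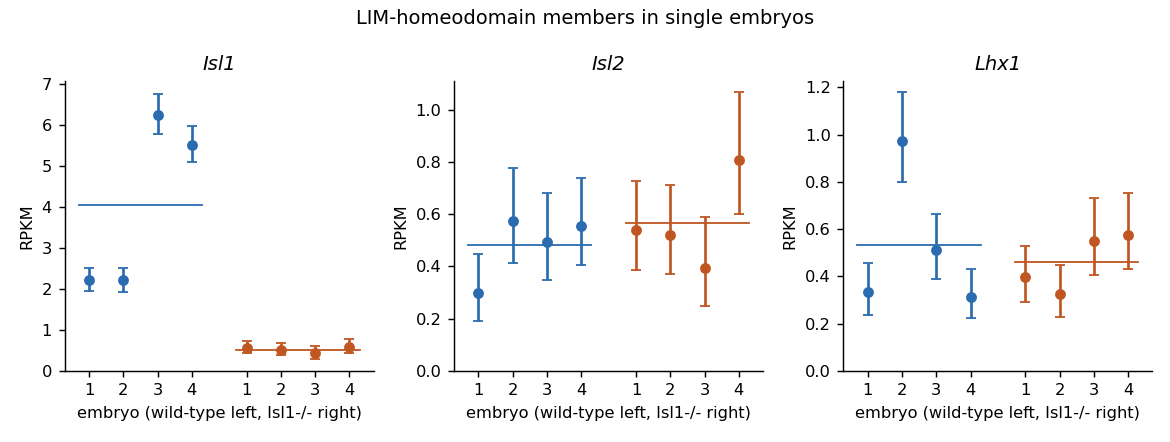
Points are RPKM (linear axis from 0) of Isl1, Isl2 and Lhx1 in each embryo, wild-type in blue and Isl1-/- in orange, with exact Poisson 95% intervals of the count as bars and group means as lines. The 4 knockout embryos sit between 0.425 and 0.58 RPKM for Isl1, below all wild-type embryos, which fall into 2 low and 2 high values, while the genotypes overlap for Isl2 and Lhx1.

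The Isl1 level differed among the wild-type embryos themselves. Embryos 1 and 2 had nearly the same exact Poisson interval, 1.94 to 2.52 and 1.92 to 2.52 RPKM, and those of embryos 3 and 4 were 5.77 to 6.74 and 5.08 to 5.96 RPKM, so the gap between the 2 lower and the 2 higher embryos was larger than counting error. The highest wild-type embryo held 2.83 times the Isl1 RPKM of the lowest, against 1.37 times among knockout embryos. Set against the knockout mean, wild-type embryos 1 to 4 held 4.27, 4.25, 12 and 10.6 times as much Isl1. The coefficient of variation of Isl1 over the wild-type embryos was 51.6% on CPM, counts scaled by TMM library size but not by length, at percentile 96.0 of all fitted genes, whose median was 11.4%. Over the knockout embryos it was 12.8%, at percentile 61.0. These percentiles, here and below, were not adjusted for read count.

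Marker sums in the same embryos differed as well. Wild-type embryo 3, the highest for Isl1, had the highest second heart field sum of its genotype (44.4 RPKM) and the lowest cardiomyocyte (416 RPKM) and erythroid (323 RPKM) sums, whereas embryo 4, nearly as high for Isl1, had a second heart field sum of 25.3 RPKM, near the 22.2 and 20.3 RPKM of embryos 1 and 2. Neural tube sums were 44.3 and 42.9 RPKM in the embryos low for Isl1 and 51.0 and 52.5 RPKM in those high for it. Intermediate mesoderm sums were 8.47 and 8.0 RPKM against 9.79 and 9.07 RPKM. Erythroid sums were 1847 and 1137 RPKM against 323 and 894 RPKM. The cardiomyocyte, foregut endoderm, endothelial and postmitotic neuron sums overlapped between these pairs of embryos. For foregut endoderm they were 64.8 and 81.3 RPKM against 89.1 and 70.4 RPKM. For endothelium they were 56.8 and 49.9 RPKM against 57.6 and 49.3 RPKM. In the neural tube list, Sox2 and Sox1 split as the sum did, but Pax6 did not, at 12.3 and 11.2 RPKM against 8.66 and 12.7 RPKM. The part of tissue composition in the spread of Isl1 was not tested. The labels give no batch or litter for these embryos, so a difference in Isl1 alone and a wider difference between these libraries cannot be told apart. Nup188, described below, split in the same way, but it was picked for its likeness to Isl1, so its split is no separate evidence.

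Isl2, the close relative of Isl1 known from motor neurons, was low and its genotypes overlapped. Isl2 was at 0.299, 0.575, 0.495 and 0.553 RPKM in wild-type embryos and at 0.538, 0.521, 0.393 and 0.809 RPKM in knockout embryos. The lowest value was that of wild-type embryo 1 and the highest that of knockout embryo 4, with the other 6 in between. The log2 fold change was 0.18 with an SE of 0.28, and its FDR by edgeR was 0.786. The interval, from -0.45 to 0.80, allows a fold from 0.732 to 1.75, so a moderate rise or fall of Isl2 was not detectable at this depth, where the gene had 23 to 50 reads per embryo. Without knockout embryo 4 the value was -0.03.

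Lhx1, a LIM-homeodomain factor of the intermediate mesoderm and of the early gastrula organiser, lies at chr11:84331479-84338923 and was at a like level and the most variable member over the wild-type embryos. Lhx1 was at 0.332, 0.975, 0.512 and 0.314 RPKM in wild-type embryos and at 0.396, 0.323, 0.551 and 0.576 RPKM in knockout embryos. Wild-type embryo 2 stood above the other 7, with an exact Poisson interval of 0.798 to 1.18 RPKM, while the other embryos of both genotypes shared 1 range. The intermediate mesoderm sum of that embryo, 8.0 RPKM, was the lowest of the 8. The coefficient of variation over wild-type embryos was 59.4%, at percentile 97.3 of fitted genes, from 38 to 106 reads per embryo. On the log2 scale the fold change was -0.28 with an SE of 0.38 and an interval from -1.12 to 0.57 (FDR 0.749 by edgeR), and without wild-type embryo 2 it was 0.20.

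Of the summed RPKM of these 3 LIM-homeodomain genes, Isl1 made up 77.8, 58.7, 86.1 and 86.4% in wild-type embryos, against 37.6, 37.6, 31.1 and 29.5% in knockout embryos. The sum itself was 5.06 ± 2.09 RPKM (SD, n = 4) in wild-type and 1.55 ± 0.287 RPKM (SD, n = 4) in knockout embryos. The knockout means of Isl2 and Lhx1 were 0.565 and 0.462 RPKM, against 0.480 and 0.533 RPKM in wild-type.

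Ldb1, the adaptor that binds Isl1 in heart progenitors, lies at chr19:46107083-46119704 and was the most abundant member. Ldb1 was at 46.9, 44.4, 51.4 and 49.9 RPKM in wild-type embryos. It was at 57.4, 51.2, 50.7 and 54.2 RPKM in knockout embryos. The groups overlapped between 50.7 and 51.4 RPKM. The log2 fold change was 0.09 with an SE of 0.06 and an interval from -0.04 to 0.23 (FDR 0.448 by edgeR). For the bulk tissue this interval is 0.973-fold to 1.17-fold, which does not bound a change within a single cell type. With a coefficient of variation of 5.03% over wild-type embryos, at percentile 12.8, Ldb1 was among the steadier genes of these embryos. It had 4001 to 5005 reads per wild-type embryo, and the part of read count in this rank was not tested.

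Ldb2, the second adaptor, lies at chr5:44863372-45190946 and was much lower. Ldb2 was at 5.03, 3.35, 4.90 and 3.63 RPKM in wild-type embryos and at 4.89, 4.97, 4.58 and 6.12 RPKM in knockout embryos. Wild-type embryos 2 and 4 were the lowest and knockout embryo 4 the highest. Knockout over wild-type gave a log2 fold change of 0.22 with an SE of 0.15 and an interval from -0.12 to 0.57 (FDR 0.481 by edgeR). Its share of the summed adaptor RPKM was 8.05 ± 1.39% (SD, n = 4) in wild-type and 8.78 ± 0.998% (SD, n = 4) in knockout embryos, a difference that did not pass an exact two-sided permutation test (p = 0.4286, 0.5715 after Benjamini-Hochberg adjustment over the 4 ratios tested).

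In RNA of the whole tissue, Isl1 was scarce beside its adaptors in both genotypes. Bulk values give neither the ratio within the cells that express Isl1 nor that of the proteins. Per 100 RPKM of Ldb1 and Ldb2 together, there were 4.27, 4.62, 11.1 and 10.3 RPKM of Isl1 in wild-type embryos, against 0.903, 0.906, 0.768 and 0.961 RPKM in knockout embryos. The groups did not overlap. The means were 7.57 ± 3.62 and 0.885 ± 0.0821 (SD, n = 4 each), with p = 0.0286 in the exact two-sided permutation test, the smallest p that 4 against 4 allows, and 0.1144 after adjustment over the 4 ratios. This outcome followed from the loss of Isl1, which alone separated the genotypes, so the test says nothing about the adaptors. The summed adaptor RPKM was 52.4 ± 3.59 (SD, n = 4) in wild-type and 58.5 ± 3.36 (SD, n = 4) in knockout embryos.

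Lmo4, a LIM-only protein of many epithelial and neural tissues, lies at chr3:143851494-143868184 and was the more abundant of the LIM-only members. Lmo4 was at 37.9, 31.6, 34.0 and 36.7 RPKM in wild-type embryos and at 40.2, 40.3, 30.3 and 44.1 RPKM in knockout embryos. Knockout embryo 3 was the lowest of all 8 and knockout embryo 4 the highest. On the log2 scale the fold change was 0.09 with an SE of 0.11 and an interval from -0.15 to 0.33 (FDR 0.716 by edgeR).

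Lmo2, which bridges LDB1 to blood and endothelial transcription factors, lies at chr2:103798143-103822035. Lmo2 was at 6.35, 4.51, 6.16 and 5.79 RPKM in wild-type embryos and at 5.17, 6.16, 5.33 and 5.83 RPKM in knockout embryos. Wild-type embryo 2 was the lowest and wild-type embryo 1 the highest, with all knockout embryos in between. Knockout over wild-type gave a log2 fold change of -0.07 with an SE of 0.13 and an interval from -0.35 to 0.20 (FDR 0.798 by edgeR). Its level was 6.16 RPKM both in wild-type embryo 3, with the lowest erythroid marker sum of the 8 (323 RPKM), and in knockout embryo 2, with the highest (2576 RPKM), while the highest Lmo2 level was in wild-type embryo 1, which had the highest erythroid sum of its genotype (1847 RPKM). Lmo2 made up 14.0 ± 1.22% (SD, n = 4) of the LIM-only RPKM in wild-type embryos, against 12.8 ± 1.65% (SD, n = 4) in knockout embryos (exact two-sided permutation p = 0.3143, adjusted 0.5715).

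Among the SSBP cofactors, Ssbp3 dominated. Ssbp3, at chr4:106583306-106722299, was at 38.0, 36.9, 41.7 and 37.6 RPKM in wild-type embryos and at 44.3, 41.6, 37.4 and 44.1 RPKM in knockout embryos. The groups overlapped between 37.4 and 41.7 RPKM. The log2 fold change was 0.06 with an SE of 0.07 and an interval from -0.09 to 0.21 (FDR 0.673 by edgeR). For the bulk tissue this interval is 0.941-fold to 1.16-fold, which does not bound a change within a single cell type.

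Ssbp2, at chr13:91599888-91843034, was at 3.90, 3.97, 2.99 and 4.30 RPKM in wild-type embryos and at 4.58, 3.71, 4.32 and 4.66 RPKM in knockout embryos. Its lowest value was in wild-type embryo 3, the embryo highest for Isl1. The log2 fold change was 0.13 with an SE of 0.12 and an interval from -0.13 to 0.39 (FDR 0.607 by edgeR). Ssbp4, at chr8:73121390-73132213, was at 4.47, 3.93, 4.04 and 3.81 RPKM in wild-type embryos and at 4.58, 4.77, 4.26 and 4.87 RPKM in knockout embryos. Only wild-type embryo 1 and knockout embryo 3 kept its groups from separating in RPKM. The log2 fold change of Ssbp4 was 0.13 with an SE of 0.11 and an interval from -0.11 to 0.36 (FDR 0.572 by edgeR).

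Ssbp3 made up 81.9, 82.3, 85.6 and 82.3% of the summed SSBP RPKM in wild-type embryos, against 82.9, 83.1, 81.4 and 82.2% in knockout embryos. Wild-type embryo 3 stood above the other 7, which lay within 1 narrow range. The means were 83.0 ± 1.70% and 82.4 ± 0.769% (SD, n = 4 each), with p = 0.6571 in the exact two-sided permutation test and 0.6571 after adjustment. The summed SSBP RPKM was 46.4 ± 1.66 in wild-type and 50.8 ± 3.61 in knockout embryos (SD, n = 4 each).

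**Figure D2:**
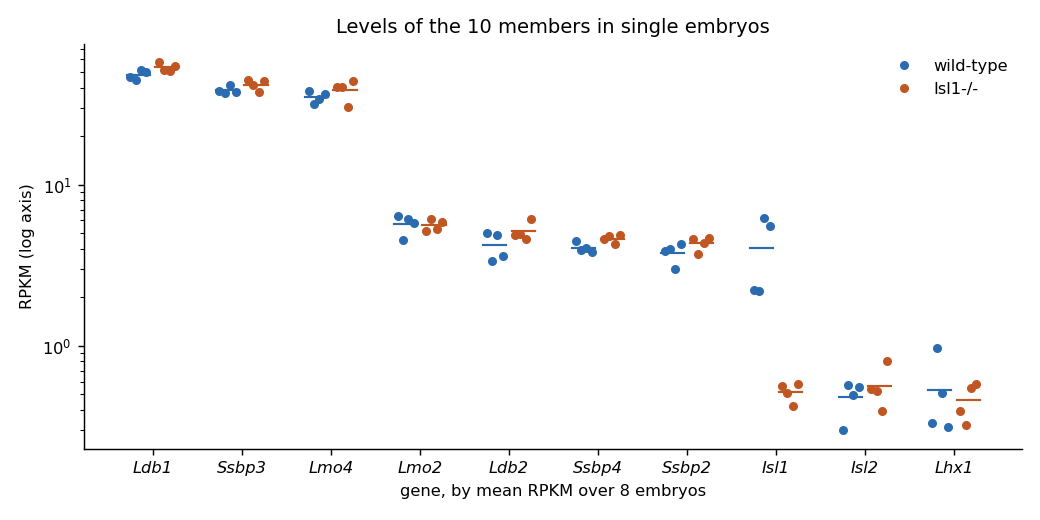
Points are RPKM on a log axis in each of the 4 wild-type (blue) and 4 Isl1-/- (orange) embryos, with group means as short lines and genes ordered by mean RPKM over all 8. Ldb1, Ssbp3 and Lmo4 lie between 30.3 and 57.4 RPKM, the next 4 genes between 2.99 and 6.35 RPKM, and Isl2 and Lhx1 below 1 RPKM, with Isl1 split by genotype.

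By mean RPKM over all 8 embryos, the members fell into 3 levels. Ldb1 (50.8 RPKM), Ssbp3 (40.2 RPKM) and Lmo4 (36.9 RPKM) were at percentiles 94.3, 92.0 and 91.1 of the fitted genes. Ldb1 and Ssbp3 did not overlap over the embryos, whereas Ssbp3 and Lmo4 did, although Ssbp3 was the higher within each of the 8 embryos. A step of 6.51 times in mean RPKM, with no overlap, separated Lmo4 from Lmo2 (5.66 RPKM, percentile 50.1).

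Lmo2, Ldb2 (4.68 RPKM), Ssbp4 (4.34 RPKM) and Ssbp2 (4.05 RPKM) formed the middle level, and no neighbours in it differed beyond their spread over embryos. Lmo2 was above Ldb2 in 7 of 8 embryos, Ldb2 above Ssbp4 in 6 of 8, and Ssbp4 above Ssbp2 in 4 of 8. Isl1 followed with 2.28 RPKM (percentile 31.7), a mean over genotypes that does not describe either of them. Isl2 (0.523 RPKM, percentile 13.9) and Lhx1 (0.497 RPKM, percentile 13.5) were lowest, and Isl2 was above Lhx1 in 4 of 8 embryos.

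The knockout was compared with wild-type to ask whether the loss of Isl1 went with a change in its partners. Of the 10 members, 1 passed an FDR of 0.05 by edgeR, Isl1, and it was lower. Among all 14075 genes, 0.973% passed it in either direction, 0.867% as lower and 0.107% as higher in the knockout. The 9 members other than Isl1 held 0 genes past this FDR, none had an unadjusted p under 0.05, against 17.4% of all genes, and DESeq2 on the same counts also placed no member other than Isl1 past an FDR of 0.05. At the thresholds used by the study, a fold of at least 1.5 with an unadjusted p under 0.05, 1 of 10 members passed, against 3.93% of all genes.

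The genotypes did not overlap in CPM for 1 of 10 members, Isl1, against 10.3% of all genes. By sign alone, 7 members were higher and 3 lower in the knockout, with a median log2 fold change of 0.09, beside a median of 0.01 and 51.2% of genes higher over all fitted genes. The 95% intervals of the 7 adaptor, LIM-only and SSBP members lay within 1.5-fold in both directions, and those of Isl2 and Lhx1 passed it on 1 side each.

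**Figure D3:**
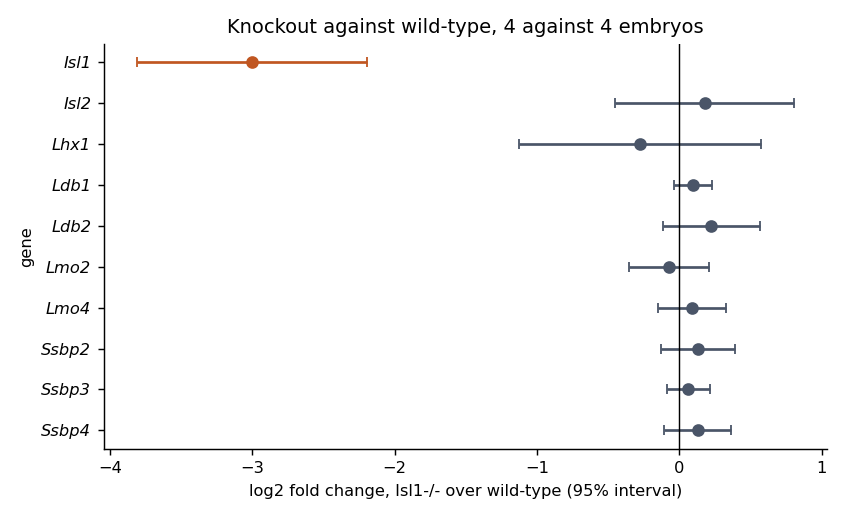
Points are log2 fold changes of knockout over wild-type (x axis, 0 is no difference) with 95% intervals from edgeR for each member, 4 against 4 embryos, with Isl1 in orange as the member past an FDR of 0.05. Isl1 lies at -3.00 with an interval from -3.81 to -2.19, and the intervals of the 9 other members cover 0.

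Several members had more than 1 transcript entry, 21 entries in all, of which each was also fitted by itself. The 2 entries of Ldb1 gave log2 fold changes of 0.11 and 0.11, the 4 of Ldb2 lay between 0.23 and 0.24, and the 4 of Lmo2 between -0.06 and -0.05. The 3 entries of Lmo4 lay between 0.10 and 0.11, the 2 of Ssbp2 were 0.14 and 0.14, and the 2 of Ssbp3 were 0.08 and 0.07. The choice of entry therefore changed no sign. Isl1, Isl2, Lhx1 and Ssbp4 had 1 entry each.

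The wider LIM network was described from a list of 24 genes, of which 21 passed the filter. None of the 21 passed an FDR of 0.05 by edgeR, 3 had an unadjusted p under 0.05 (17.4% of all genes did), and DESeq2 called 0 as well. By sign, 11 were higher and 10 lower, with a median log2 fold change of 0.03. Lhx3, Lhx4 and Lhx8 were too low to fit.

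Among the other LIM-homeodomain genes, Lhx2 (6.51 RPKM), a forebrain and pharyngeal factor, Lhx5 (3.17 RPKM), a forebrain factor, and Lmx1b (2.49 RPKM), known from limb and midbrain, had the highest mean levels over the 8 embryos. All were above Isl2 and Lhx1. Their log2 fold changes were -0.23 for Lhx2 (FDR 0.648), -0.49 for Lhx5 (FDR 0.237) and 0.26 for Lmx1b (FDR 0.482), all by edgeR. Lhx9, picked out after its values were seen, was the single gene of the 21 fitted past the study's thresholds, against 3.93% of all genes. It was also the single fitted one without overlap in CPM, against 10.3% of all genes. Its mean was 0.0394 RPKM in wild-type and 0.0738 RPKM in knockout embryos, from 7 to 16 reads per embryo (FDR 0.216 by edgeR).

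The other LIM-only genes Lmo3 (2.17 RPKM) and Lmo1 (2.04 RPKM) were below both LIM-only members. Rlim, the ubiquitin ligase that degrades LDB proteins, was at 14.0 ± 0.803 RPKM in wild-type and 13.3 ± 1.04 RPKM in knockout embryos (SD, n = 4 each), with a log2 fold change of -0.14 and an FDR of 0.380 by edgeR. The E proteins Tcf12 (51.6 RPKM), Tcf3 (44.8 RPKM) and Tcf4 (7.42 RPKM) led the list of LMO2 and LDB1 partners in blood complexes. Their log2 fold changes were -0.01, 0.03 and 0.06, with the highest and lowest FDR at 0.951 and 0.742 by edgeR. The LMO4 partners Rbbp8 (14.4 RPKM) and Deaf1 (9.80 RPKM) gave -0.09 and 0.09 (FDR 0.524 and 0.634 by edgeR).

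The spread of Isl1 between embryos was set beside 5 genes known as Isl1 targets in heart progenitors. The study discusses these genes on the same embryos, so their direction is not independent evidence. All 5 had lower means in the knockout, with a median log2 fold change of -0.66. Of them, 3 passed an FDR of 0.05 by edgeR, against 0.973% of all genes in either direction. Beside them, the cardiomyocyte marker sums given above were also lower in all knockout embryos, and the part of that difference in the values below was not tested.

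Myocd, a coactivator of muscle genes, was at 3.27, 3.16, 5.65 and 3.74 RPKM in wild-type embryos and at 1.55, 1.05, 1.47 and 1.43 RPKM in knockout embryos. Myocd fell by 1.58 on the log2 scale with an SE of 0.19 (FDR 0.00447 by edgeR). Its order over the wild-type embryos was that of Isl1 at the top, with embryo 3 first and embryo 4 second, but embryo 4 was close to embryos 1 and 2 for Myocd and close to embryo 3 for Isl1. The other targets, given below, also had embryo 3 first and embryo 4 second in RPKM, but in CPM embryo 4 was not second for Mef2c and Hand2.

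Smarcd3, which encodes the chromatin remodelling subunit Baf60c, was at 12.4, 12.2, 13.8 and 13.1 RPKM against 8.51, 8.16, 8.41 and 8.82 RPKM. Smarcd3 fell by 0.66 on the log2 scale with an SE of 0.07 (FDR 0.00279 by edgeR). Mef2c, a muscle transcription factor, was at 9.13, 8.56, 10.4 and 9.14 RPKM against 6.38, 5.45, 4.79 and 6.76 RPKM. Mef2c fell by 0.73 on the log2 scale with an SE of 0.11 (FDR 0.00985 by edgeR). For these 3 genes every wild-type embryo, also those with low Isl1, was above every knockout embryo in RPKM.

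Fgf10, a second heart field growth factor, was at 1.90, 1.61, 2.78 and 2.0 RPKM in wild-type and at 1.40, 1.55, 1.23 and 1.70 RPKM in knockout embryos. Its log2 fold change of -0.55 had an FDR of 0.148 by edgeR, and wild-type embryo 3 was again the highest. Hand2, a transcription factor of the right ventricle and outflow tract, was at 5.53, 7.18, 8.31 and 7.28 RPKM against 4.67, 6.17, 5.53 and 5.99 RPKM. Its log2 fold change of -0.39 had an FDR of 0.187 by edgeR, and its groups overlapped. In CPM the genotypes did not overlap for 4 of the 5 targets, Fgf10 among them, against 10.3% of all genes.

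**Figure D4:**
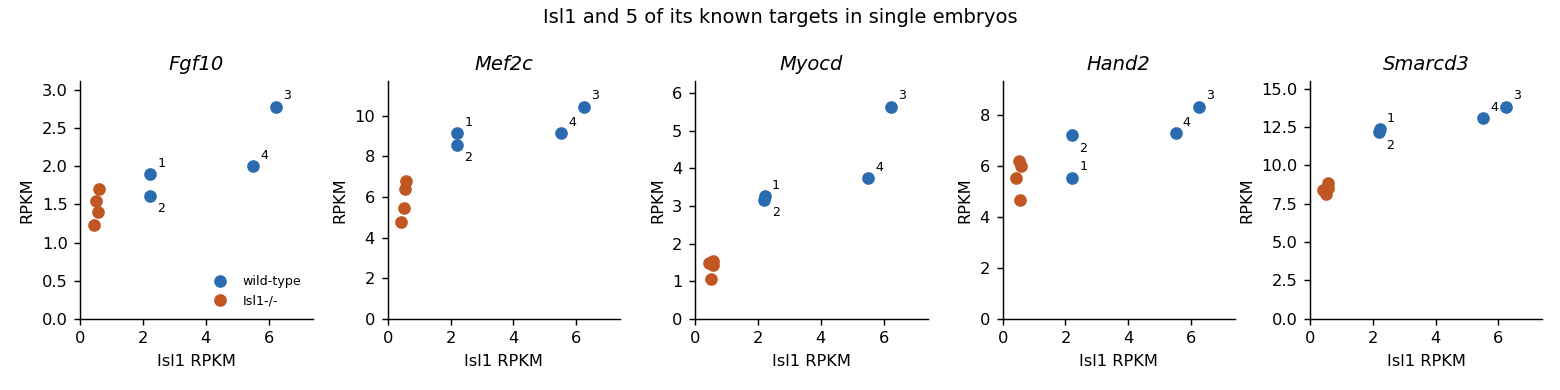
Each panel plots the RPKM of 1 target gene (y axis, from 0) against the RPKM of Isl1 (x axis) in the 4 wild-type (blue, numbered by embryo) and 4 Isl1-/- (orange) embryos. Wild-type embryo 3, with 6.24 RPKM of Isl1, is highest in every panel, and wild-type embryo 4, with 5.51 RPKM, lies near embryos 1 and 2 in most.

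Likeness to Isl1 was described by Pearson's r of log2 CPM over the 8 embryos, which share their library with Isl1. After centring within genotype, the fitted genes most like Isl1 included Nup188 (r = 0.99), Slfn9 (r = 0.987), Msl2 (r = 0.981) and Gorasp1 (r = 0.98). This likeness came from the wild-type embryos: Nup188, a nuclear pore component, was at 16.2, 16, 30.9 and 27.8 RPKM in them, split between embryos 1 and 2 and embryos 3 and 4 as Isl1 was, and at 30.3 to 35.1 RPKM in the knockout embryos. Among members, r ranged from -0.435 for Ssbp2 to 0.733 for Ldb1, and among the 5 targets from 0.463 for Mef2c to 0.744 for Smarcd3. The spread of r over all genes is not given beside these values. Nup188, Slfn9, Msl2 and Gorasp1 were picked as the highest over all fitted genes, so their r is no separate evidence of a tie to Isl1.

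Without centring, r largely restates the difference between the genotypes. The genes most like Isl1 were then Cd68 (r = 0.979), Ppp1r3d (r = 0.977), Smarcd3 (r = 0.969), Nkx2-6 (r = 0.965) and Atp2a2 (r = 0.962). Nkx2-6, a pharyngeal and outflow tract homeobox gene, was at 2.12, 2.63, 5.17 and 4.21 RPKM in wild-type embryos and at 0.841, 0.877, 0.683 and 0.440 RPKM in knockout embryos. Like Isl1, it had its higher wild-type values in embryos 3 and 4, but Nkx2-6 was picked for its likeness to Isl1, so this is no separate evidence. On this measure the other 9 members ranged from -0.659 for Ssbp4 to 0.297 for Lmo2.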

How the data were processed

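Members and gene lists were chosen with earlier results of these data known. The authors extracted RNA of single embryos, mapped reads to mm9 with STAR, and used HOMER to count reads of both strands over RefSeq exons; the submitters' processing notes name STAR, DESeq2, edgeR and mm9, and versions were not given in the sources used here. The deposited counts were raw and the authors derived the deposited RPKM from them in edgeR. Recomputing RPKM from counts and the deposited transcript length gave differences of at most 0.000492. Columns with the authors' DESeq2 comparison (mean, log2 fold change, standard error, statistic, p and adjusted p) were not used, and 0 sample columns lacked a sample.

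The deposited table held 31507 transcript entries. The entry with the highest summed count was kept per symbol. Counts were fitted in R 4.3.3 with edgeR 4.0.16 (filterByExpr, TMM, quasi-likelihood test, genotype as the single term, two-sided, Benjamini-Hochberg over 14075 genes) and the model was tested on simulated data. Alternatives were DESeq2 1.42.0, limma 3.58.1 on log2(RPKM + 1) or log2(RPKM + 0.1), RLE scaling, no filter, all entries, the replicate number as a block, Y-linked expression as a covariate, and each embryo left out. Replicates were separate embryos, so their spread includes biological variation. Ratios of RPKM were compared by exact permutation tests. Coding sequences and positions came from GENCODE vM1 on NCBIM37 (mm9). Scripts used Python 3.11.15 with scipy 1.17.1 and pandas 2.3.3.

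Genes named were the 10 members; from the LIM network list the genes past FDR 0.05 and the 3 with the highest mean RPKM in each role; 5 known Isl1 targets; the 5 genes with the highest correlation with Isl1, with and without centring; and the 3 markers with the highest mean RPKM per list. Lhx9 was named after its values were seen. Of the genes this rule selects, 2 are not reported here.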

Additional observations from a re-analysis of the deposited data

Results flagged for a closer look

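The Ssbp3 share of the summed SSBP RPKM in wild-type embryo 3 was 85.6%, far above the other 3 wild-type embryos by Dixon's gap criterion. It was the single case in 28 groups of 4 embryos that were checked, and chance alone gives about 1 in 20. The same embryo had the lowest Ssbp2 level of the 8 embryos, 2.99 RPKM, the highest Isl1 level, 6.24 RPKM, and the lowest erythroid marker sum, 323 RPKM.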

How the results depend on the processing

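The fall of Isl1 passed an FDR of 0.05 in 16 of 16 alternatives, with log2 values from -3.20 to -1.63, the smallest on log2(RPKM + 1). Leaving out 1 embryo gave -3.20 to -2.72. The counts of members past the FDR and past the thresholds of the study, and of LIM network genes past the FDR, were the same in the 16. Of the other members, 2 changed sign in 1 alternative: Isl2 without knockout embryo 4 (-0.034, leave-one-out -0.034 to 0.31) and Lhx1 without wild-type embryo 2 (0.20, leave-one-out -0.47 to 0.20). The knockout minus wild-type difference in Ssbp3 share, -0.651 percentage points, turned to 0.194 without wild-type embryo 3 and was -1.01 to 0.194 over the embryos left out, with no p under 0.05. The Isl1 per adaptor difference, -6.68 RPKM per 100, was -7.78 to -5.51 with 1 embryo left out; without any 1 knockout embryo its exact permutation p was 0.0857. The Isl1 coefficient of variation was 45.2 to 64.1% with 1 wild-type embryo left out, the highest without embryo 4.

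Replicate numbers are shared between the genotypes, but nothing says that they pair embryos, and same-numbered embryos deviated together unevenly (r = 0.109, 0.212, 0.0863 and 0.507 for numbers 1 to 4). Only wild-type embryo 1 was most like the knockout embryo of its own number. Wild-type embryos 2, 3 and 4 were each more like a knockout embryo of another number. With the replicate block, the Isl1 log2 fold change was -2.84 (FDR 0.0131), and the Isl1 per adaptor difference was -6.68 with p = 0.125, the smallest an exact sign-flip test of 4 pairs allows. The cardiomyocyte markers past an FDR of 0.05 went from 7 to 3 of 8 (Nkx2-5, Tnnt2 and Myh7). No call changed among the other members, the LIM network genes and the 5 known targets.

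Isl2 and Lhx1 had 23 to 106 reads per embryo, and Lhx1 also varied between embryos beyond counting error; their intervals leave a rise of 1.75-fold of Isl2 or a fall to 0.459-fold of Lhx1 undetected.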
